A study of Homo sapiens with 38 samples.

Results

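Transcript levels of 8 chemokine genes were followed in A549 cells exposed to fumed silica nanoparticles (SiO2 NPs). The genes were the CC chemokines CCL2, CCL5, CCL20 and CCL28, the CX3C chemokine CX3CL1, the interferon-type CXC chemokines CXCL10 and CXCL11, and CXCL16. They were chosen by name, and their probes were found through the transcript accession that the array design gives for each probe. They made up 9 of the 34127 probes on the array and 8 of the 19720 genes whose accession matched a RefSeq symbol, with 2 probes for CXCL10 and 1 probe for each of the others.

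Chemokines are small secreted proteins that attract leukocytes along a gradient by binding G protein-coupled receptors. CC chemokines draw monocytes, dendritic cells and lymphocytes, CXCL10 and CXCL11 are typical products of cells that have sensed interferon, and CX3CL1 and CXCL16 are made as membrane-bound proteins whose soluble form is released by proteases. In the airway, epithelial cells release several of them during inflammation, largely under the control of the transcription factor NF-kB and, for the interferon-type members, of interferon-activated factors.

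A549 is a human lung adenocarcinoma line used as a model of the alveolar epithelium, so the arrays describe a single line with no leukocytes added. All cells, controls included, were kept in serum-free medium during exposure, and the particles were AEROSIL, a fumed amorphous silica. The 38 single-dye arrays fell into 3 sets, each with its own unexposed controls. Set A held 4 control arrays, 4 at 0.1 μg/cm2 and 4 at 1.0 μg/cm2, all at 24 h. Set B held 4 control arrays and 4 at 1.5 μg/cm2, also at 24 h. Set C held 3 control arrays, 3 at 3.0 μg/cm2 and 3 at 6.0 μg/cm2 at each of 24 h and 72 h. The labels give every array of a group its own number, as both a biological and a technical replicate. The protocol speaks of 3 cultures, while sets A and B have 4 arrays a group, so that some of those arrays may share a culture.

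Levels are given as the log2 of the scanner's background-corrected signal minus the 75th percentile of the same array. A level near 0 is thus as bright as the upper quartile of that array. Probes are compared only with themselves, because brightness also depends on the probe. The 75th percentile ranged from 740.4 to 3202 signal units over the 38 arrays, and between 54.35% and 73.51% of probes were well above background by the scanner's own mark. Between the 72 h exposed and control arrays of set C, exposure cannot be told apart from scan day or slide. The exposed arrays were scanned on a later day than their controls and lay on other slides. Set B was scanned over 2 days, each with arrays of both groups. The total RNA of a well was compared, so fewer cells making a transcript and less transcript per cell cannot be told apart.

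The members were measured at very different distances from background. CCL2 and CXCL16 were well above background on all 38 arrays, CCL20 on 35 and CCL28 on 33. CCL5 passed on 15 arrays, of which 11 were exposed arrays of set C. CX3CL1 passed on 7 arrays, each CXCL10 probe on 1, and CXCL11 on none. A comparison tested a probe only if at least 1 of its groups had that probe well above background throughout. In this way 5 of the 8 genes were tested in at least 1 of the 7 comparisons with controls, and CX3CL1, CXCL10 and CXCL11 were never tested. A difference was called, and is described as a rise or a fall, when its adjusted p was under 0.05 and its fold at least 1.5.

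The sequences upstream of a member detected on most arrays, CCL20, and of the interferon-type members that stayed at background, CXCL10 and CXCL11, are shown because the known NF-kB and interferon control of these genes acts there. They are the 250 bases before the annotated transcript start, from RefSeq on the GRCh38.p14 assembly, each written 5′ to 3′ on the strand of its gene. The windows lie at chr2:227813592-227813841 (plus strand), chr4:76023498-76023747 (minus strand) and chr4:76036071-76036320 (minus strand). Capitals mark matches on either strand to the NF-kB consensus and to the interferon response core, which is GAAA, any 2 bases and GAAA again.
CCL20: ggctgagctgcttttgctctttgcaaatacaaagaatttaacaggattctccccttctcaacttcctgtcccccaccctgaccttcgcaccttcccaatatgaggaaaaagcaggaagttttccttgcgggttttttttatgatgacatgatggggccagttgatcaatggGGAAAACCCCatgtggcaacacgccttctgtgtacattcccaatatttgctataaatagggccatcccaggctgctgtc
CXCL10: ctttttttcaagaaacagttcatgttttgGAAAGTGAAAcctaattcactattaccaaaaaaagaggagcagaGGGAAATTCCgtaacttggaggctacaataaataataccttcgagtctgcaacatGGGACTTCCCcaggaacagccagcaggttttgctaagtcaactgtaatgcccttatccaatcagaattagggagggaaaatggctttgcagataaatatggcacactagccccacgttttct
CXCL11: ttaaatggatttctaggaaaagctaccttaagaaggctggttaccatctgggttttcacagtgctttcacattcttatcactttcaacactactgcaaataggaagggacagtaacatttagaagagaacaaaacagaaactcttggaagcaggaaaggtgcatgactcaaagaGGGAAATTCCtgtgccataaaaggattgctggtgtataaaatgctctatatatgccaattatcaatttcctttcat
The CCL20 window held 1 NF-kB match, read on the opposite strand at bases 79 to 70 before the start, and a TATAAA at bases 29 to 24. The CXCL10 window held 2 NF-kB matches, at bases 177 to 168 and 122 to 113, and an interferon response core at bases 221 to 212. The CXCL11 window held 1 NF-kB match at bases 76 to 67, the AP-1 site TGACTCA at bases 87 to 81 and a TATAAA at bases 42 to 37. Of 35116 windows of the same length, 9.96% held an NF-kB match, 3.02% the interferon response core, 6.57% the AP-1 motif TGANTCA and 10.7% TATAAA, each searched on both strands. Both CCL28 windows held no NF-kB match. Windows for 4 of the 8 members were at hand, and those of CCL2, CCL5, CX3CL1 and CXCL16 were not analysed here.

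**Figure D1:**
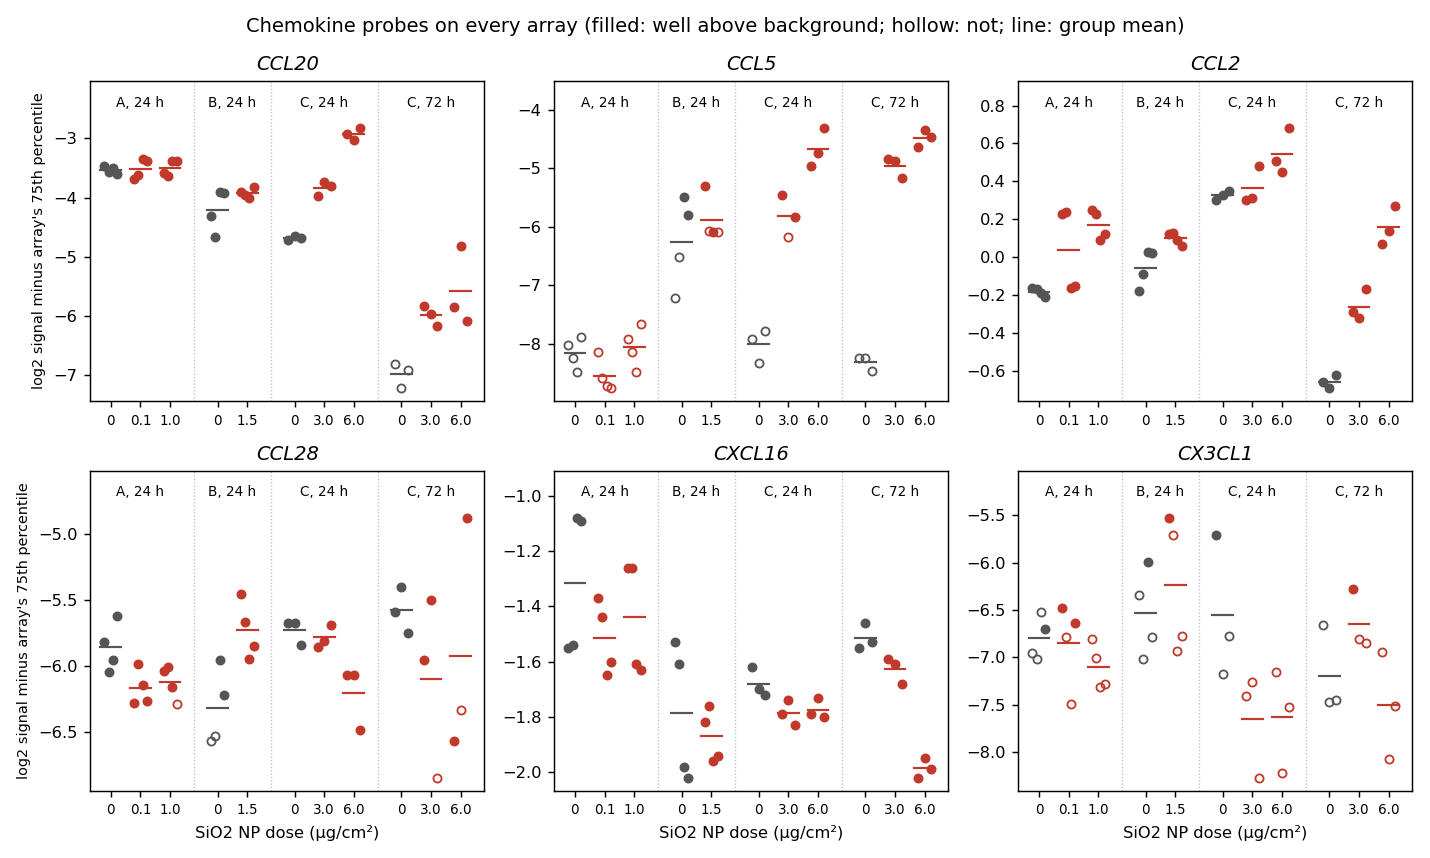
Level of CCL20, CCL5, CCL2, CCL28, CXCL16 and CX3CL1 on every array (log2 signal minus the array's 75th percentile, y axis) by dose in μg/cm2, set and time, with controls in gray, exposed arrays in red and a line at each group mean. Filled points are well above background and hollow points are not, so CCL5 is hollow on all controls of set C and filled on 11 of its 12 exposed arrays there.

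CCL20, the ligand of CCR6 that attracts immature dendritic cells and Th17 cells, rose at both doses at 24 h. The 24 h controls of set C read −4.72, −4.65 and −4.68, the arrays at 3.0 μg/cm2 read −3.97, −3.74 and −3.81, and those at 6.0 μg/cm2 read −2.93, −3.02 and −2.83. The 3 groups did not overlap, and the highest control lay under the lowest exposed array. CCL20 was 1.80-fold higher at 3.0 μg/cm2 (log2 difference 0.85 ± 0.07 (SE), adjusted p = 0.00141, limma with Benjamini-Hochberg adjustment) and 3.38-fold higher at 6.0 μg/cm2 (1.76 ± 0.06, adjusted p = 2.92e-05). The step from 3.0 to 6.0 μg/cm2, tested without the control arrays, was 0.91 ± 0.08 (adjusted p = 0.00416). With the median spot signal that the authors deposited in the series matrix, which has no background subtracted, the difference at 3.0 μg/cm2 was 0.47 (adjusted p = 0.0564).

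At 72 h, CCL20 was dimmer in all groups. The controls read −6.81, −7.22 and −6.92 and none was well above background, while the arrays at 3.0 μg/cm2 read −5.84, −5.97 and −6.17 and those at 6.0 μg/cm2 −5.85, −4.82 and −6.08. All 6 exposed arrays were above all controls, but the exposed groups overlapped each other and replicate 2 at 6.0 μg/cm2 stood over the other 2. Because the controls were at background, only an approximate lower bound of the fold in the background-corrected signal can be given. It sets the exposed mean over all replicates against a control mean in which a reading under the array's dimmest probe well above background is raised to that level. CCL20 was thus at least 1.45-fold higher at 3.0 μg/cm2 (adjusted p = 0.00603) and at least 1.93-fold higher at 6.0 μg/cm2 (adjusted p = 0.0126). The latter missed the threshold in the methods' t-test (adjusted p = 0.0623). These bounds, and those given below, do not cover other background corrections. They use the dimmest marked probe of an array, and the limit for a given member can lie higher, which would make the bound smaller. CCL5 on replicate 2 at 3.0 μg/cm2 and 24 h read −6.18 and was not marked, while the dimmest marked probe of that array lay at −6.66. With the series matrix the CCL20 log2 difference was −0.1 at 3.0 μg/cm2 and 0.03 at 6.0 μg/cm2.

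In the background-corrected signal unexposed cells carried less CCL20 at 72 h than at 24 h, at least 3.6-fold lower (adjusted p = 4.99e-05). Over the alternatives run this log2 difference lay between −2.43 and −0.45. The response to silica, taken as the exposed minus control difference, did not pass the test for a change between the times, at 0.15 (95% confidence interval −0.21 to 0.50, adjusted p = 0.547) for 3.0 μg/cm2 and −0.35 (−1.16 to 0.45, adjusted p = 0.473) for 6.0 μg/cm2. The latter rested on exposed replicate 2 at 72 h, without which the difference was −0.73 (adjusted p = 0.008). Both CCL20 values also depended on the background correction. With normexp and with the series matrix the difference between times was −0.33 (adjusted p = 0.0465) and −0.57 (adjusted p = 0.0483) at 3.0 μg/cm2, of the opposite direction and under 1.5-fold, and −0.98 (adjusted p = 0.0055) and −1.05 (adjusted p = 0.00308) at 6.0 μg/cm2, past both thresholds.

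The 3 lower doses gave no call for CCL20. In set A the controls read −3.46, −3.56, −3.50 and −3.61, the arrays at 0.1 μg/cm2 −3.69, −3.62, −3.35 and −3.39, and those at 1.0 μg/cm2 −3.58, −3.64, −3.39 and −3.38. In set B the controls read −4.31, −4.67, −3.90 and −3.93 and the arrays at 1.5 μg/cm2 −3.91, −3.95, −4.01 and −3.83. Exposed and control arrays overlapped at each of these doses. The intervals of the difference were −0.19 to 0.24 at 0.1 μg/cm2, −0.14 to 0.21 at 1.0 μg/cm2 and −0.11 to 0.67 at 1.5 μg/cm2. All intervals and SEs of sets A and B treat the 4 arrays of a group as independent. Over all probes, replicates 1 and 2 deviated together, as did 3 and 4 (consensus correlation 0.872, 0.807 and 0.63 at these doses). The intervals may thus be too narrow. At 1.5 μg/cm2 the difference was 0.56 within the scan day of replicates 1 and 2 and 0.00 within that of replicates 3 and 4.

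CCL5 (RANTES), which attracts T cells, monocytes and eosinophils, showed the largest measured differences of the 8 genes in the background-corrected signal. They started from a level at background. The 24 h controls of set C read −7.92, −8.33 and −7.77, none well above background. The arrays at 6.0 μg/cm2 read −4.97, −4.74 and −4.32, all well above background, and those at 3.0 μg/cm2 read −5.45, −6.18 and −5.84, of which replicates 1 and 3 were. No exposed array overlapped the controls at either dose. In the background-corrected signal CCL5 was at least 4.29-fold higher at 6.0 μg/cm2 (measured difference 3.33 ± 0.20, adjusted p = 1.3e-04). Over the alternatives run this log2 difference went down to 0.41, while that of CCL20 in the same comparison stayed at 1.08 or above.

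At 3.0 μg/cm2 and 24 h CCL5 was left out by the filter, because its 3.0 μg/cm2 replicate 2 was at background. The bound there was at least 1.94-fold in the background-corrected signal. With no filter the measured difference was 2.18 (adjusted p = 0.0192), and without that replicate it was 2.36 (adjusted p = 0.00803).

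At 72 h the CCL5 controls read −8.24, −8.23 and −8.46, all at background, the arrays at 3.0 μg/cm2 −4.85, −4.88 and −5.16 and those at 6.0 μg/cm2 −4.64, −4.35 and −4.47. All 6 exposed arrays were well above background, and the 2 doses did not overlap. In the background-corrected signal CCL5 was at least 2.97-fold higher at 3.0 μg/cm2 (measured difference 3.35 ± 0.11, adjusted p = 3.1e-04). At 6.0 μg/cm2 it was at least 4.13-fold higher (3.83 ± 0.10, adjusted p = 1.67e-05). Over the alternatives run these log2 differences went down to 0.09 at 3.0 μg/cm2 and 0.33 at 6.0 μg/cm2. The background-corrected signal of the 72 h controls was 2.38 to 3.42 units for CCL5, beside 1.98 to 2.62 for CXCL11, which was never well above background. At both times the SEs and adjusted p values of CCL5 thus reflect, in part, the spread of background readings in the controls.

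In sets A and B CCL5 was not tested. It was at background on all 12 arrays of set A, between −8.75 and −7.66. In set B the controls read −7.22, −6.51, −5.49 and −5.79 and the arrays at 1.5 μg/cm2 −5.30, −6.07, −6.08 and −6.09. In set B 2 arrays of each group were well above background, replicates 3 and 4 of the controls and replicates 1 and 3 of the exposed cells, and the groups overlapped.

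The dim members depended on how background was removed, and the scanner signals behind the levels show by how much. For CCL5 at 24 h, the processed signal was 3.43 to 5.43 units in controls and 37.1 to 56.9 units at 6.0 μg/cm2, while the uncorrected median of the spot was 57 to 78 units in controls and 83 to 93 units at 6.0 μg/cm2. At 72 h and 3.0 μg/cm2 the uncorrected CCL5 median was 52 to 71 units against 43 to 62 units in controls. These ranges overlapped although the processed signals did not. The local background around these spots was 19 to 29.5 units at 3.0 μg/cm2 and 19 to 24.5 units in controls. For CCL20 at 24 h the uncorrected medians did not overlap, at 102 to 125 units in controls, 132 to 169 at 3.0 μg/cm2 and 239 to 248 at 6.0 μg/cm2.

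With the series matrix medians, CCL5 differed by 0.41 (adjusted p = 0.0357) at 6.0 μg/cm2 and 24 h, 0.09 (adjusted p = 0.609) at 3.0 μg/cm2 and 72 h, and 0.33 (adjusted p = 0.0554) at 6.0 μg/cm2 and 72 h. With the normexp background model these CCL5 differences were 0.75 (adjusted p = 0.179), 0.37 (0.0138) and 0.46 (0.00263), and none reached the 1.5-fold threshold together with the adjusted p. CCL20 at 72 h behaved alike, with series matrix differences of −0.10 (adjusted p = 0.561) at 3.0 μg/cm2 and 0.03 (adjusted p = 0.894) at 6.0 μg/cm2. The CCL20 difference at 6.0 μg/cm2 and 24 h remained called under each alternative run, at 1.08 to 1.80.

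**Figure D2:**
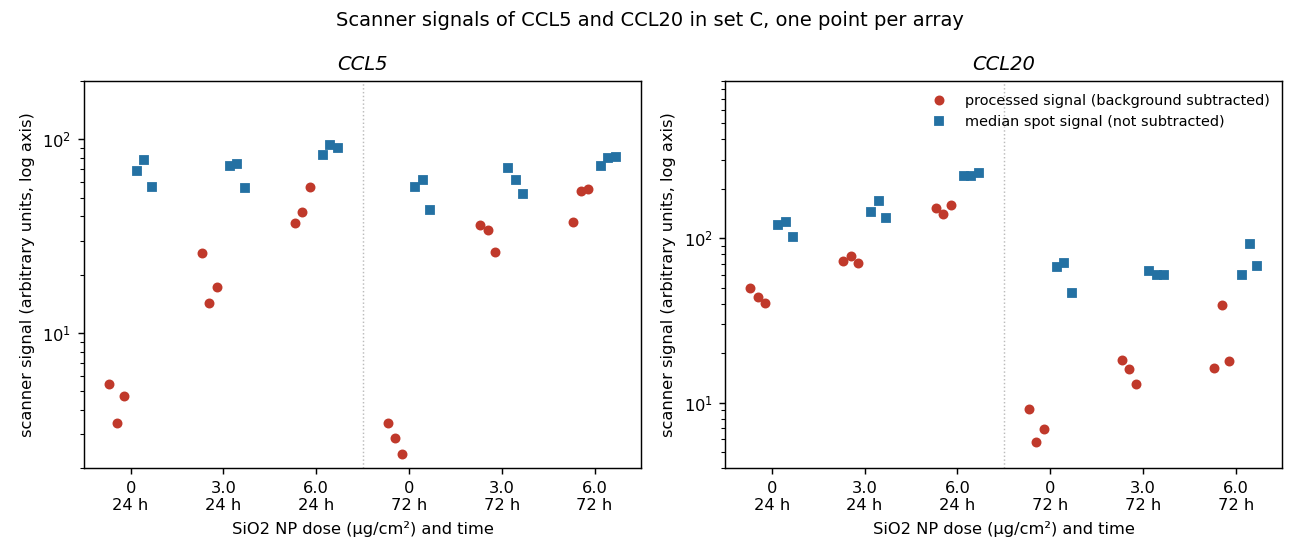
Scanner signals of CCL5 and CCL20 on the 18 arrays of set C on a log axis in arbitrary units, as the background-corrected processed signal and as the uncorrected spot median, by dose and time. The processed signals of CCL5 separate exposed from control arrays at both times, while its uncorrected medians at 3.0 μg/cm2 and 72 h (52 to 71) overlap those of controls (43 to 62).

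CCL2 (MCP-1), the main monocyte attractant of the CC family and the ligand of CCR2, rose at 6.0 μg/cm2 and 72 h. The 72 h controls read −0.66, −0.69 and −0.62, the arrays at 3.0 μg/cm2 −0.29, −0.32 and −0.17 and those at 6.0 μg/cm2 0.07, 0.14 and 0.27. The 3 groups were fully separated and in the order of dose. At 6.0 μg/cm2 CCL2 was 1.76-fold higher (log2 difference 0.81 ± 0.07, adjusted p = 3.15e-04), and this call was kept under each alternative run (0.73 to 0.86). At 3.0 μg/cm2 the difference of 0.40 ± 0.06 passed the adjusted p (0.00778) but was 1.32-fold, under the 1.5-fold threshold.

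At 24 h CCL2 was called at no dose. The controls of set C read 0.30, 0.33 and 0.35, the arrays at 3.0 μg/cm2 0.30, 0.31 and 0.48 and those at 6.0 μg/cm2 0.51, 0.45 and 0.68. The arrays at 6.0 μg/cm2 were all above the controls and those at 3.0 μg/cm2 overlapped them. The differences were 0.22 (95% confidence interval 0.05 to 0.39, adjusted p = 0.0566) and 0.04 (−0.11 to 0.19, adjusted p = 0.731). In set A, the controls read −0.16, −0.17, −0.19 and −0.21 and the arrays at 1.0 μg/cm2 0.25, 0.23, 0.09 and 0.12, which did not overlap (0.35 ± 0.06, adjusted p = 0.0783). At 0.1 μg/cm2 replicates 1 and 2 read 0.23 and 0.24 while replicates 3 and 4 read −0.16 and −0.15, close to the controls. In set B the CCL2 controls read −0.18, −0.09, 0.03 and 0.02 and the arrays at 1.5 μg/cm2 0.12, 0.13, 0.09 and 0.06. The groups did not overlap, and the difference of 0.15 (adjusted p = 0.361) was made up of 0.26 within the scan day of replicates 1 and 2 and 0.05 within that of replicates 3 and 4.

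The CCL2 response was larger at 72 h than at 24 h for 6.0 μg/cm2, by 0.59 ± 0.10 (1.51-fold, adjusted p = 0.00126), and for 3.0 μg/cm2 the difference of 0.36 ± 0.08 passed the adjusted p (0.0168) only. The 1.51-fold value is at the edge of the threshold and fell under it in 8 of 22 alternatives (0.52 to 0.66 over all of them). These were 5 of the fits without 1 array (0.54 to 0.58), normexp, quantile normalization and the series matrix. Unexposed cells had 1.97-fold less CCL2 at 72 h than at 24 h (−0.98 ± 0.05, adjusted p = 6.11e-05), and the exposed arrays at 72 h stayed below the 24 h controls.

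CXCL16, a membrane-bound chemokine and scavenger receptor that binds CXCR6, was well above background everywhere and was called in no comparison with controls. At 72 h the controls read −1.55, −1.46 and −1.53, the arrays at 3.0 μg/cm2 −1.59, −1.61 and −1.68 and those at 6.0 μg/cm2 −2.02, −1.95 and −1.99. The arrays at 6.0 μg/cm2 lay below all others of this time. The difference of −0.48 ± 0.06 (adjusted p = 0.00119) passed the adjusted p and was 1.39-fold, under the fold threshold. At 24 h the differences were −0.11 at 3.0 μg/cm2 (95% confidence interval −0.24 to 0.02) and −0.10 at 6.0 μg/cm2 (−0.23 to 0.04). The difference between the times at 6.0 μg/cm2 was −0.38 ± 0.07 (adjusted p = 0.0022), also under 1.5-fold.

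CXCL16 split its arrays in pairs in set A, where the controls read −1.55, −1.54, −1.08 and −1.09, the arrays at 0.1 μg/cm2 −1.37, −1.44, −1.65 and −1.60 and those at 1.0 μg/cm2 −1.26, −1.26, −1.61 and −1.63. Replicates 1 and 2 were close to each other in each group, as were replicates 3 and 4, and both exposed groups overlapped the controls. The same pairs appeared for CCL2. In set B the CXCL16 controls read −1.53, −1.61, −1.98 and −2.02 and the arrays at 1.5 μg/cm2 −1.82, −1.76, −1.96 and −1.94, with overlap and differences of −0.22 and 0.05 within the scan days. With these pairs as a random block, no member was called at 0.1, 1.0 or 1.5 μg/cm2.

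CCL28, a mucosal chemokine that binds CCR3 and CCR10, was dim and was called in no comparison. At 24 h the controls of set C read −5.68, −5.68 and −5.84, the arrays at 3.0 μg/cm2 −5.86, −5.81 and −5.69 and those at 6.0 μg/cm2 −6.07, −6.07 and −6.49. The arrays at 6.0 μg/cm2 lay below all controls, with a difference of −0.48 ± 0.13 (adjusted p = 0.0278) that was 1.39-fold, under the fold threshold. This CCL28 difference was 0.28 (adjusted p = 0.52) with normexp and −0.17 (adjusted p = 0.392) with the series matrix. At 72 h the controls read −5.59, −5.40 and −5.75, the arrays at 3.0 μg/cm2 −5.96, −5.50 and −6.85 and those at 6.0 μg/cm2 −6.57, −6.34 and −4.88.

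At 6.0 μg/cm2 and 72 h CCL28 replicate 3 was above all controls and replicates 1 and 2 below them, and the difference of −0.35 ± 0.42 had an interval of −1.36 to 0.66. Without replicate 3 it was −0.88 (adjusted p = 0.00575), past both thresholds. In set B the difference at 1.5 μg/cm2 was 0.59 ± 0.16 (adjusted p = 0.107), made up of 0.98 within one scan day and 0.19 within the other, and 2 of the 4 controls were at background. In set A the CCL28 differences were −0.31 (adjusted p = 0.438) at 0.1 μg/cm2 and −0.26 (adjusted p = 0.258) at 1.0 μg/cm2.

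The 3 remaining members gave no level that could be followed. CX3CL1 (fractalkine), whose membrane-bound form tethers leukocytes carrying CX3CR1, was well above background on 1 of the 6 controls and 1 of the 12 exposed arrays of set C, between −8.27 and −5.71 there. In sets A and B CX3CL1 passed on 2 of 8 control and 3 of 12 exposed arrays. CXCL10 and CXCL11, which attract activated T cells through CXCR3, lay at background on all 18 arrays of set C. CXCL10 read between −9.08 and −7.58 there over its 2 probes and CXCL11 between −9.05 and −7.81.

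These values bound the level but do not show that the transcripts were absent. The dimmest probe well above background on an array of set C lay between −7.06 and −6.32, so any CXCL10 or CXCL11 signal was below that. In set A, 1 CXCL10 probe read −4.43 on replicate 4 at 0.1 μg/cm2, where the second CXCL10 probe read −9.89 on the same array. The 2 probes of that gene thus disagreed on the only array where the first was well above background.

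**Figure D3:**
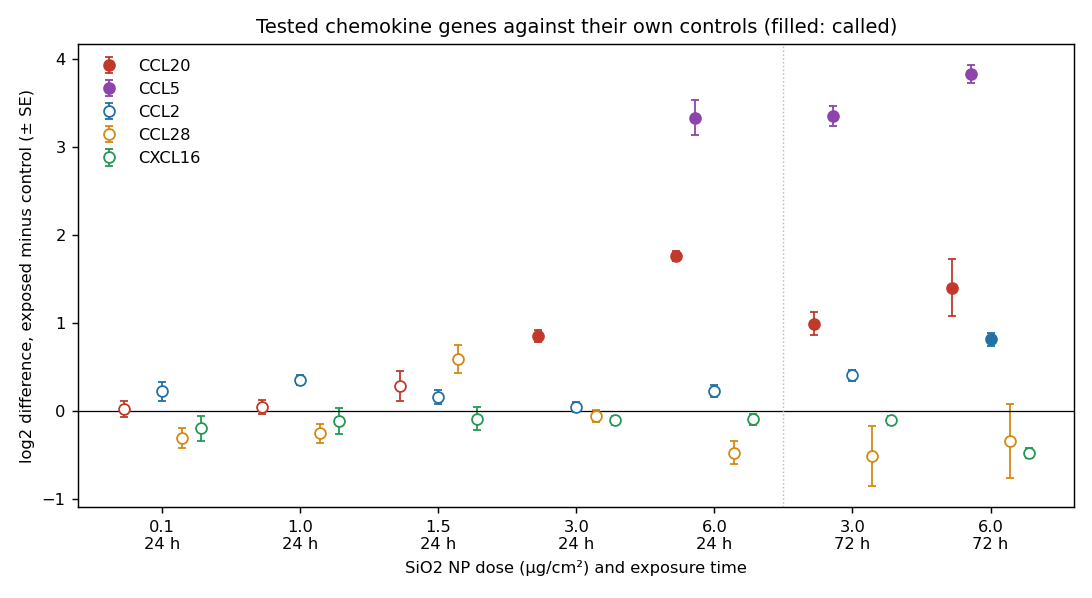
Log2 difference of exposed from control arrays (y axis, with bars of ± 1 SE from limma) for the 5 members tested, at each dose and time, with filled points for calls. The filled points are CCL20 at 3.0 and 6.0 μg/cm2 at either time, CCL5 at each of its 3 points and CCL2 at 6.0 μg/cm2 and 72 h, all above 0. For CCL5, and for CCL20 at 72 h, all controls were at background, so the bars partly reflect the spread of background readings.

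Each count of members called is given beside the share of all probes called in that comparison. At 0.1 μg/cm2, 0 of 4 tested members and 0% of 21698 probes were called, with 1 member and 2049 probes under a p of 0.05 before adjustment and 1 probe called by the methods' t-test. At 1.0 μg/cm2, 0 of 4 members were called beside 0.00949% of all probes. Before adjustment 2 members had a p under 0.05 there, and none was called by the methods' t-test. At 1.5 μg/cm2, 0 of 4 members were called beside 2.47% of all probes, with 1 member under 0.05 before adjustment and none called by the methods' t-test. That share stood for 520 probes. The number ran from 276 (without 1.5 μg/cm2 replicate 4) to 567 (without control replicate 1) with an array left out, and was 0 within the scan day of replicates 1 and 2 and 2140 within that of replicates 3 and 4.

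At 24 h, 1 of 4 tested members (CCL20) was called at 3.0 μg/cm2 beside 2.88% of 22096 probes (1.49% higher), and 2 of 5 (CCL20 and CCL5) at 6.0 μg/cm2 beside 9.32% of 22174 (3.95% higher). At 72 h, 2 of 5 (CCL20 and CCL5) were called at 3.0 μg/cm2 beside 5.91% of 21957 probes (2.1% higher), and 3 of 5 (CCL2, CCL5 and CCL20) at 6.0 μg/cm2 beside 17.1% of 21859 (6.63% higher). All of these calls were in the direction of a higher level. The median difference of the tested members at 3.0 μg/cm2 and 24 h was −0.01, beside −0.0051 over all probes. In the other comparisons of set C, CCL5, and at 72 h CCL20 too, passed the filter only through the exposed arrays, with all controls at background, so these counts are no support of their own. With the filter asking for detection on all arrays of both groups compared, 1 member was called at 6.0 μg/cm2 and 24 h, 0 at 3.0 μg/cm2 and 72 h and 1 at 6.0 μg/cm2 and 72 h. The comparisons at 3.0 and 6.0 μg/cm2 share their control arrays at each time, as do those at 0.1 and 1.0 μg/cm2.

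Between the 2 higher doses at 24 h, 2 of 5 members were called beside 1.64% of all probes. These were CCL20, given above, and CCL5, which was 1.15 ± 0.22 higher at 6.0 than at 3.0 μg/cm2 (adjusted p = 0.0296). CCL5 passed the filter only through the 6.0 μg/cm2 arrays, so this count is no support of its own. The replicate numbers paired the arrays of these doses, and with the number as a block CCL5 had an adjusted p = 0.0537 and lost its call, while CCL20 kept it (adjusted p = 0.0233). At 72 h 0 of 4 members were called between the doses beside 4.85% of all probes. The adjusted p alone was passed by 3 of the 4, beside 16.8% of all probes, namely CCL2 (0.41 ± 0.08, adjusted p = 0.0198), CCL5 (0.48 ± 0.12, adjusted p = 0.0419) and CXCL16 (−0.36 ± 0.06, adjusted p = 0.0106), and the methods' t-test called none. With slide as a fixed block no member passed the adjusted p at 72 h, from 0.109 for CCL2 to 0.979 for CCL20, and 0 of 21609 probes were called. Only a single slide held arrays of both doses, so that fit had little power and cannot show whether the differences depend on slide.

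Between the times, 1 of 5 members was called at 3.0 μg/cm2 beside 5.33% of all probes, and 1 of 5 at 6.0 μg/cm2 beside 17.2%. At 3.0 μg/cm2 this was CCL5, whose measured response was 1.17 ± 0.27 larger at 72 h than at 24 h (adjusted p = 0.0153). CCL5 passed the filter only through the 3.0 μg/cm2 arrays at 72 h, so this count is no support of its own. All 6 controls behind the CCL5 difference were at background, and with the series matrix medians it was −0.03 (adjusted p = 0.937). At 6.0 μg/cm2 it was CCL2, and the CCL5 difference of 0.50 had an interval of −0.06 to 1.06 and was −0.29 with normexp and −0.08 with the series matrix. Between the controls of the 2 times, 2 of 4 members were called beside 20.1% of all probes (6.72% lower), CCL2 and CCL20, both lower at 72 h. CCL20 passed the filter only through the 24 h controls, so that count is no support of its own either. CXCL16 was 0.16 higher in the 72 h controls (adjusted p = 0.0422, under 1.5-fold), and CCL28 differed by 0.15 (adjusted p = 0.227).

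The list of receptors covered chemokines in general, not only these ligands, and most of its genes did not pass the filter. Of 22 chemokine receptor genes, 7 were tested in each comparison of set C and 5 were above background on all 38 arrays, CCR7, CCR10, CXCR3, CXCR4 and ACKR3. CCR6, the CCL20 receptor, rose at 6.0 μg/cm2 and 72 h by 0.71 ± 0.10 (adjusted p = 0.00185). CCR7, the receptor that guides dendritic cells to lymph nodes, fell by 0.86 on the log2 scale at 6.0 μg/cm2 and 24 h (adjusted p = 0.000413), and ACKR3, which takes up chemokines without G protein signaling, fell by 0.66 at 6.0 μg/cm2 and 72 h (adjusted p = 0.00453). The counts called higher and lower were 0 and 1 at 6.0 μg/cm2 and 24 h and 1 and 2 at 72 h, with medians of −0.26 and −0.11, and there was no call at 3.0 μg/cm2 or below. All counts of the lists stand beside 2.88% and 9.32% of all probes called at 3.0 and 6.0 μg/cm2 at 24 h, and 5.91% and 17.1% at 72 h.

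Of 23 other chemokine genes, 5 were tested in each comparison of set C and none was called, with medians of 0.08, 0.01, 0.33 and 0.26 for 3.0 and 6.0 μg/cm2 at 24 h and then at 72 h. CCL24, CCL26 and CCL27 were above background on all arrays. Of 8 proteases that release or trim the members, the only calls were 1 lower at each dose at 72 h. DPP4, which trims the amino end of many chemokines, went from well above background to background at 6.0 μg/cm2 and 72 h, at least 2.12-fold lower (adjusted p = 0.00132). ADAM10, a protease known to release CX3CL1 and CXCL16, was called at no dose.

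Of 16 cytokines and receptors that can induce the members, 8 or 9 were tested in set C. TNF was at least 1.6-fold higher at 6.0 μg/cm2 and 24 h (adjusted p = 0.0135), from controls at background. IL1B was at least 1.48-fold lower at 6.0 μg/cm2 and 72 h (adjusted p = 0.000198), with exposed arrays at background, and its receptor IL1R1 fell by 0.89 (adjusted p = 0.000167). IFNB1 and IFNG were above background on no array. The counts called higher and lower were 1 and 0 at 6.0 μg/cm2 and 24 h, 0 and 1 at 3.0 μg/cm2 and 72 h and 0 and 2 at 6.0 μg/cm2 and 72 h.

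Of 29 transcription factors and sensors upstream of the members, 28 had a probe. The counts called higher and lower at 24 h were 2 and 1 of 27 tested at 3.0 μg/cm2 and 5 and 2 of 28 at 6.0 μg/cm2, with medians of 0.10 and 0.26, beside 2.88% and 9.32% of all probes. At 72 h they were 1 and 2 of 26 at 3.0 μg/cm2 and 2 and 6 of 26 at 6.0 μg/cm2, with medians of −0.12 and −0.15, beside 5.91% and 17.1% of all probes. RELB, a subunit of the alternative NF-kB pathway, rose in all 4 comparisons of set C, by 0.95, 1.34, 1.15 and 1.74 (adjusted p = 2.56e-05 for the last). ATF3, a stress-induced factor, rose by 1.56 at 6.0 μg/cm2 and 24 h (adjusted p = 0.000217), and TLR4 by 0.95 (adjusted p = 0.00414). FOS, a subunit of AP-1, fell by 1.35 at 6.0 μg/cm2 and 72 h (adjusted p = 0.000218), as did the RNA sensor TLR3 by 0.98 (adjusted p = 0.00142) and the interferon-signaling factor IRF9 by 0.76 (adjusted p = 0.000673).

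Of 10 interferon-response genes other than the members, 9 were tested in set C and 7 were above background on all 38 arrays. The counts called higher and lower were 0 and 0 at 3.0 μg/cm2 and 3 and 0 at 6.0 μg/cm2 at 24 h, and 2 and 0 at 3.0 μg/cm2 and 1 and 1 at 6.0 μg/cm2 at 72 h. MX1 and ISG15, both induced by interferon, rose at 3.0 μg/cm2 and 72 h by 1.07 (adjusted p = 0.0108) and 0.92 (adjusted p = 0.00172). IFIT3 rose at 6.0 μg/cm2 and 24 h by 0.92 (adjusted p = 0.00013) and IFIT1 fell at 6.0 μg/cm2 and 72 h by 0.63 (adjusted p = 0.0181). Medians were 0.17, 0.24, 0.16 and −0.11. No gene of the lists was called at 0.1, 1.0 or 1.5 μg/cm2.

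**Figure D4:**
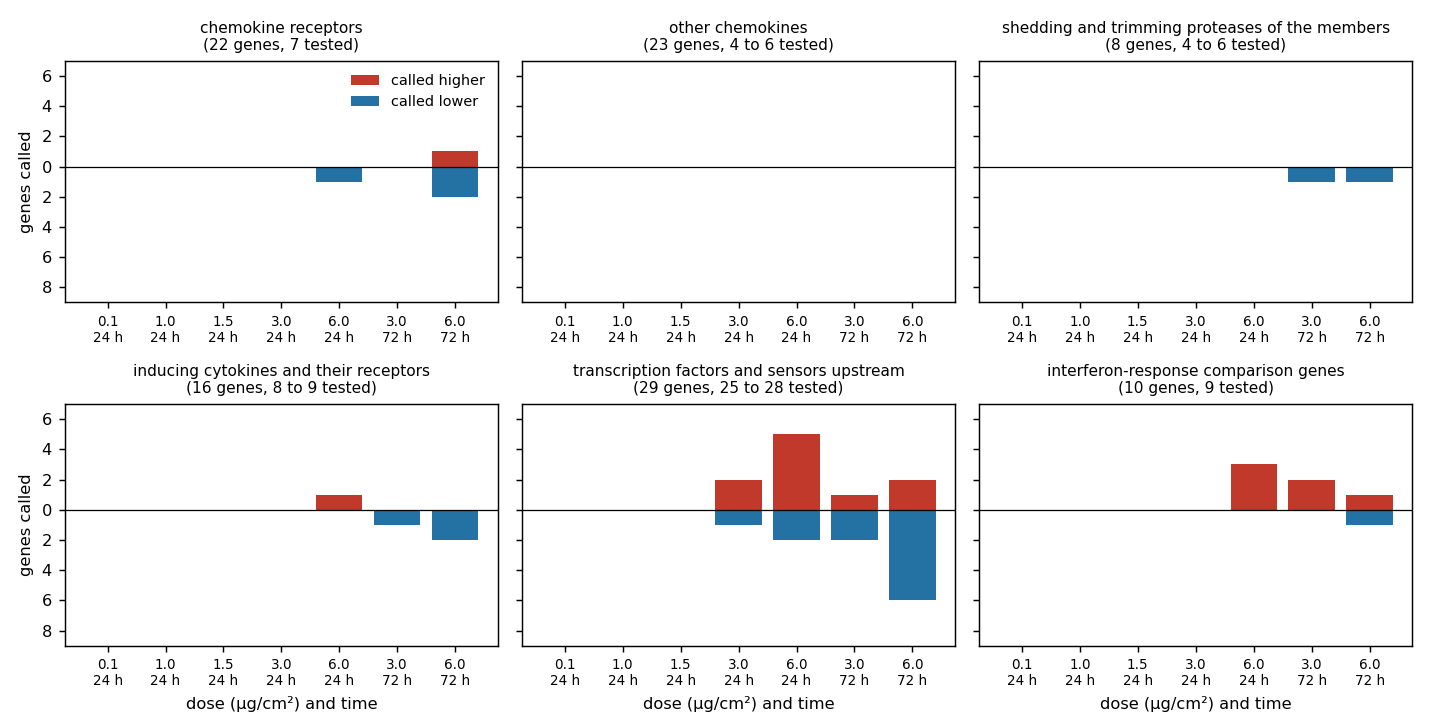
Number of genes called higher (red, above the line) and lower (blue, below it) in each of the 6 gene lists, by dose in μg/cm2 and time, with the number tested in each panel title. At 6.0 μg/cm2 the transcription factors and sensors had 5 calls higher and 2 lower at 24 h, and 2 higher and 6 lower at 72 h.

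The genes most alike in pattern to the called members were found by correlation over the 38 arrays, after taking from each array the mean of its own controls. These correlations describe 22445 probes and share arrays, doses and control means. For CCL20 they were IL6 (Pearson r = 0.934), VGF (0.923) and MCTP1 (0.923). IL6, an inflammatory cytokine, rose by 2.08 at 3.0 μg/cm2 and 3.73 at 6.0 μg/cm2 at 24 h (adjusted p = 2.22e-05 for the latter), and by 1.62 and 2.27 at 72 h. For CCL5 they were DCLK1 (0.95), RELB (0.946) and the pseudogene HTR7P1 (0.946), whose probe may share signal with related transcripts. CCL5 itself was well above background on 15 of the 38 arrays, so its other values in these correlations are background readings. DCLK1 rose by 1.27, 1.46, 1.33 and 1.44 in the 4 comparisons of set C, while HTR7P1 was called in none.

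For CCL2 the most alike were LTB (0.909), MAP3K14 (0.857) and ANKRD2 (0.847). LTB, a lymphotoxin subunit, was at least 1.73-fold higher at 6.0 μg/cm2 and 72 h (adjusted p = 0.00149), from controls at background, and MAP3K14, the kinase of the alternative NF-kB pathway, rose by 1.44 (adjusted p = 8.11e-05). At 6.0 μg/cm2 and 24 h the differences were 0.18 (adjusted p = 0.333) and 0.36 (adjusted p = 0.0101), neither of them called. ANKRD2 rose at 72 h by 1.22 at 3.0 μg/cm2 and 2.00 at 6.0 μg/cm2.

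Markers of the labeled cell type and of other cells were read on the same arrays. All 5 epithelial markers were above background on all 38 arrays, and of 6 alveolar type II markers SFTPC and ABCA3 were, while SFTPA1 passed on 11, SFTPB on 2 and NKX2-1 on 1. Of the 5 epithelial markers, 2 were called lower at 3.0 μg/cm2 and 24 h, and 1 higher and 2 lower at 6.0 μg/cm2 and 24 h. None was called at 3.0 μg/cm2 and 72 h. At 6.0 μg/cm2 and 72 h EPCAM fell by 1.17 and CDH1 fell by 1.42, the only epithelial calls there. Of 3 alveolar type II markers tested, 1 was called lower at 6.0 μg/cm2 and 24 h. These counts stand beside the shares of all probes given above. Of 11 leukocyte markers, PTPRC, CD14 and CD68 were above background on all arrays and the T cell marker CD3E on 7.

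The summed leukocyte marker level, in units of the array's 75th percentile, differed between the groups of set C, but its members did not move together. The sum was 0.632 to 0.663 in the 24 h controls, 0.966 to 1.01 at 3.0 μg/cm2 and 1.58 to 1.73 at 6.0 μg/cm2. At 72 h it ran the other way, with 2.98 to 3.15 in controls, 2.24 to 2.44 at 3.0 μg/cm2 and 1.67 to 1.82 at 6.0 μg/cm2. Of the 5 markers tested, 1 was called higher and 2 lower at 6.0 μg/cm2 and 24 h, with a median of −0.18. CD68, a lysosomal protein that epithelial cells also make, rose by 2.29 there, PTPRC fell by 0.63 and CD14 fell by 0.70. After 72 h at 6.0 μg/cm2 2 of 5 were called higher, CD68 (0.61) and ITGAM (0.65), and CD14 fell by 1.39, with a median of 0.13. CD14 was 3.39 higher in the 72 h than in the 24 h controls. The summed fibroblast level went from 0.226 to 0.295 in the 24 h controls to 0.0836 to 0.106 at 6.0 μg/cm2, with COL1A2 and PDGFRB above background on no array. The part of these markers in the chemokine results was not tested.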

How the data were processed

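Gene expression was read on 38 single-dye Agilent 4x44K v2 arrays of A549 cells. The authors deposited scanner output from Agilent Feature Extraction (10.10.1.1 for set A, 11.0.1.1 for sets B and C, per the file headers), whose processed signal is a background-corrected intensity, not normalized between arrays. The 1690810 values of the series matrix the authors deposited match the uncorrected spot median intensity to within 0.01. The methods name an unpaired t-test with Benjamini-Hochberg adjustment and 1.5-fold, and no normalization.

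Here log2 signals were centered on the 75th percentile of their array. Controls and the 0.612% of spots with outlier or non-uniform marks were left out, spots of a probe were averaged (the CCL2 probe has 10), and no spot was saturated. Probes well above background throughout at least 1 group of a comparison were tested with limma 3.58.1 (lmFit, eBayes) in R 4.3.3 (packages statmod 1.5.0, jsonlite 2.0.0, data.table version 1.17.8). A call required an adjusted p under 0.05, over all probes tested, and at least 1.5-fold. Each dose and time was compared with the controls of its set and time, 6.0 with 3.0 μg/cm2, and 72 h with 24 h (an interaction, or controls alone), 12 comparisons in all. Standard errors and 95% intervals are limma's, and the number of arrays limits the precision. The test was tested on simulated data. Figures were drawn by matplotlib 3.10.9 with pandas 2.3.3 in Python 3.11.15.

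The members and gene lists were chosen with earlier results of these data known. All members were named, and of each list the 3 called genes with the largest difference in each direction. Gene names came from RefSeq through probe accessions, and 8412 of 34127 probes had none. The 72 h exposed arrays were taken as 72 h from their source names, although their descriptions say 24 h. Replicate numbers paired the arrays only between 6.0 and 3.0 μg/cm2 (correlations of deviations 0.252, 0.291 and 0.257 at 24 h, 0.602, 0.152 and 0.308 at 72 h). Alternatives were normexp (offset 50), quantile normalization, no or a stricter filter, the methods' t-test, no fold threshold, 1 fit per set, replicate number, slide, scan day or replicate pairs as blocks, marked spots kept, the series matrix, and each array left out.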

Additional observations from a re-analysis of the deposited data

Results flagged for a closer look

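Of 45 groups of 4 arrays of the member probes, 6 held an array far from the other 3. The rule flags about 1 in 20 groups of independent, normally spread values. These groups share arrays and many of their values lie at background, so the 6 cannot be set against that rate. CCL5 at 1.5 μg/cm2 read −5.30 on replicate 1 and −6.09 to −6.07 on the others. The first CXCL10 probe read −4.43 on replicate 4 at 0.1 μg/cm2, with the others at −9.09 to −8.85, and −8.15 on replicate 4 at 1.0 μg/cm2, with the others at −9.21 to −9.05. The second CXCL10 probe read −6.86 on replicate 4 of the set A controls, with the others at −8.82 to −8.50, and −9.89 on replicate 4 at 0.1 μg/cm2, with the others at −8.96 to −8.83. CXCL11 read −8.12 on replicate 4 at 1.0 μg/cm2, with the others at −9.18 to −9.03. All but the values of −5.30, −4.43 and −6.86 were not well above background.

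The responses at 72 h and 24 h differed by limma's interaction test for CCL5 at 3.0 μg/cm2 (1.17, adjusted p = 0.0153), for CCL2 at 3.0 μg/cm2 (0.36, adjusted p = 0.0168) and at 6.0 μg/cm2 (0.59, adjusted p = 0.00126), and for CXCL16 at 6.0 μg/cm2 (−0.38, adjusted p = 0.0022). Exposure cannot be told apart from scan day or slide in the 72 h arrays of these tests.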

How the results depend on the processing

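Counts of members called in a comparison stayed within 1.5 times the count given in 184 of 225 alternatives, which include the comparisons without a call. The member differences kept direction and side of the thresholds in 911 of 995. Of the 14 calls of members, 3 were kept with normexp and 5 with the series matrix. The background correction mattered most. With normexp the count went from 1 to 0 (3.0 μg/cm2, 24 h), 2 to 1 (6.0, 24 h), 2 to 0 (3.0, 72 h), 3 to 1 (6.0, 72 h), 2 to 0 (6.0 against 3.0 at 24 h), 1 to 0 (3.0, 72 h minus 24 h) and 2 to 1 (controls). With the series matrix it went to 0, 1, 0, 1, 1 and 0 in the first 6 of these, and the CCL20 difference at 3.0 μg/cm2 and 72 h turned to −0.10 and the CCL5 difference between times at 3.0 μg/cm2 to −0.03. The stricter filter, which drops probes with a dim group, gave 1, 0, 1, 1, 0 and 1 at 6.0 (24 h), 3.0 and 6.0 (72 h), 6.0 against 3.0 (24 h), 3.0 between times and in controls. With no filter 2 members were called at 3.0 μg/cm2 and 24 h and 1 for 6.0 against 3.0 at 24 h. For 6.0 μg/cm2 between times the count stayed at 1 with normexp and with the series matrix, but the call was CCL20 in place of CCL2. Quantile normalization gave 0 for both differences between times. For 6.0 against 3.0 at 24 h the methods' t-test, the replicate block and slide as a fixed block each gave 1. The replicate block changed no other call of a member. With no fold threshold, 3 were called for 6.0 against 3.0 at 72 h and 2 for each difference between times.

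With an array left out, counts ran from 1 to 2 at 3.0 μg/cm2 and 24 h (2 without 3.0 μg/cm2 replicate 2), 3 to 4 at 6.0 μg/cm2 and 72 h (4 without 6.0 μg/cm2 replicate 3), 1 to 2 for 6.0 against 3.0 at 24 h and 0 to 2 for 6.0 μg/cm2 between times, where 5 arrays (24 h control replicate 3, 72 h control replicate 2, 6.0 μg/cm2 replicates 1 and 2 at 24 h and 3 at 72 h) each ended the CCL2 call. The CCL5 call for 6.0 against 3.0 at 24 h was lost without replicate 2 or 3 of either dose (adjusted p from 0.0697 to 0.0839). In the other comparisons no count changed.

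Over all probes, the number called changed by over 1.5 times with normexp, from 520 to 178 (1.5 μg/cm2), 636 to 227 and 2066 to 803 (3.0 and 6.0 μg/cm2, 24 h), 1297 to 495 and 3740 to 1978 (72 h), 363 to 20 and 1049 to 384 (6.0 against 3.0 at 24 h and 72 h), 1205 to 555 and 3888 to 2498 (between times) and 4455 to 2075 (controls). With the series matrix it did so at 24 h and in the controls, giving 191 at 1.5 μg/cm2, 233 at 3.0 μg/cm2, 938 at 6.0 μg/cm2, 92 for 6.0 against 3.0 and 2045 in controls, and 473 for 6.0 against 3.0 at 72 h. The share of calls that were higher went from 42.4% to 58.7% (6.0 μg/cm2, 24 h) with normexp, and from 35.6% to 12.5% and 38.7% to 18.5% (72 h) with the series matrix, under which the median of all probes ran as far as −0.1069 (3.0 μg/cm2, between times) and 0.1025 (controls). With replicate pairs as a block 92 probes were called at 1.5 μg/cm2. With slide as a fixed block 0 probes were called for 6.0 against 3.0 at 72 h, where 1049 were called without it. That fit had little power, because only a single slide held both doses. Slide as a block could not be fitted for the 72 h comparisons with controls, and the second CXCL10 probe was never tested. The cause of these changes was not tested. Signal over background limits CCL5 at all times and CCL20 at 72 h.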
